A study of Homo sapiens with 16 samples.

Results

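The RNA polymerase II (Pol II) profile of hTERT RPE-1 cells after 30 min of merbarone was compared with the control profile, as 9 chromatin immunoprecipitation (ChIP-seq) libraries of the 16 in the series. hTERT RPE-1 is an established human line of retinal pigment epithelium kept dividing by telomerase, wild type in all groups, and every group had been starved for 48 h in 0.1% serum. The 30 min group had 3 libraries from cells given 200 µM merbarone. The control had 6 libraries, 3 from cells given the solvent DMSO and 3 from untreated cells. Rpb1, the largest subunit of Pol II, was precipitated with an antibody to its N-terminal domain, which does not tell paused from elongating polymerase. The libraries of a condition stand behind 1 deposited peak list with positions only, and the DMSO and untreated libraries share a list, so no value has an error over replicates, no test over samples was possible and every comparison below is a description of these lists. A list from 6 libraries and a list from 3 can also differ through sequencing depth, which is not known for these lists. A difference in peak cover therefore says where the caller's threshold was passed, and not how much polymerase was bound.

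Pol II initiates at the gene start, commonly pauses just downstream, travels through the body, and runs on past the poly(A) site before it is released. DNA ahead of the moving enzyme is overwound and DNA behind it is underwound, and the topoisomerases, among them TOP2A, relax this strain. Merbarone is a catalytic inhibitor of type II topoisomerases that blocks their cutting of DNA. Immediate-early genes such as FOS and EGR1 are known for paused polymerase at their starts and for rapid release of it on stimulation. The question that the design puts is how Pol II is placed along genes shortly after this inhibition.

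In both lists, neighbouring peaks separated by 37 bp or less were first merged, and peaks narrower than any in the 1 h list were left out, so that all lists kept to the same limits. The control list then held 60318 peaks over 40.6 Mb of hg19 and the 30 min list 68011 peaks over 46.6 Mb. The 1 h list, given below beside them, held 81816 peaks over 58.3 Mb, so its values come from a list with wider cover. Covered length at 30 min was 1.15 times that of control, with a range of 1.08 to 1.23 over 23 chromosomes. Peaks of the 2 lists no more than 5 kb apart were joined into 20215 Pol II domains, of which 4488 were at least 5 kb long with a peak in both lists. The share of the domain under peaks was the level compared, in percent of its length, and a change of at least 10 percentage points was counted.

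Gains far outnumbered losses. Of the 4488 domains, 1562 (34.8%) were covered more at 30 min and 178 (3.97%) were covered less by at least 10 points. The median change was 6.41 points, with quartiles of 0.279 and 13. A change of any size was upward in 3411 domains and downward in 1076. The domains on either side of the threshold moved by 10.01 and 9.99 points upward and by -10.03 and -9.96 points downward. Domains with little cover in control gained most often: 42.9% of the 1115 domains under 20% covered were covered more and 0.987% less, and a domain under 10% could not lose 10 points. Among the 189 domains with at least 80% cover in control, 1.06% were covered more and 15.3% less, and a domain near 100% had no room to rise.

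**Figure D1:**
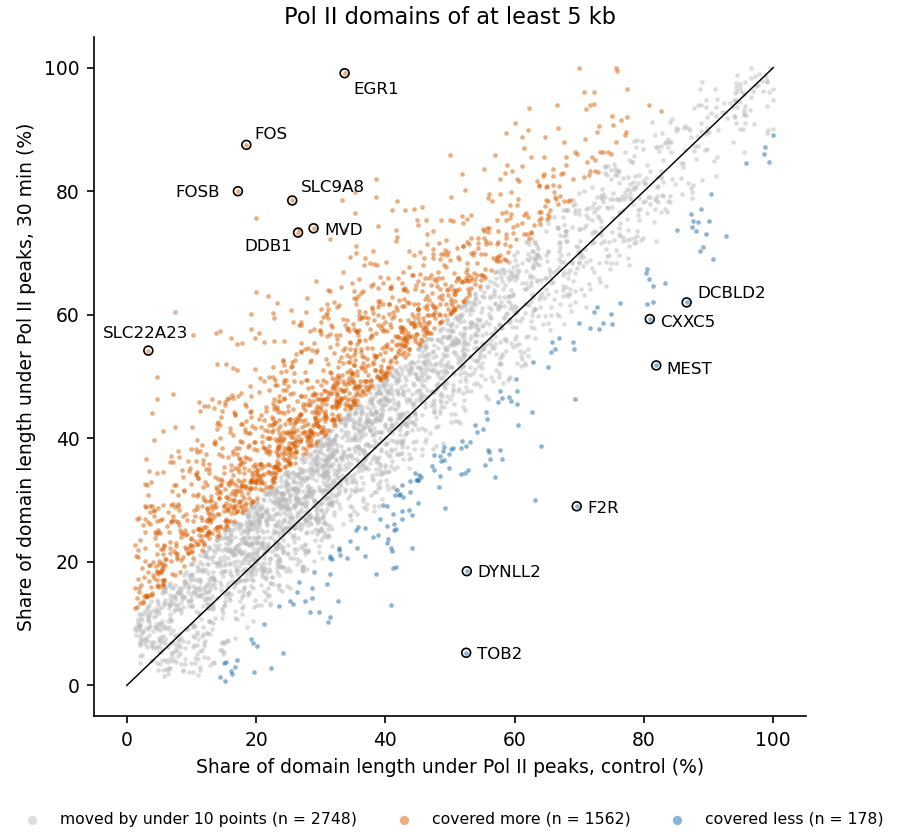
Each point is 1 of 4488 Pol II domains, with the share of its length under peaks in control on the x axis and at 30 min on the y axis, both in percent; the line marks equal shares and circles mark named loci. FOS, EGR1 and FOSB stand highest above the line, and TOB2 and F2R are among the farthest below it.

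The 3 domains with the largest rise in share were those of the immediate-early transcription factors FOS, EGR1 and FOSB. The 250 bases before their starts are shown with those of TOB2, whose downstream domain had the largest fall (RefSeq, GRCh38.p14). They are printed because the starts of FOS, EGR1 and TOB2 were covered in control while the larger changes lay further along. Capitals mark CArG boxes, the binding sequence of serum response factor, and the letters TGACGT, the core of the cAMP response element, and TATAAA. Each was searched on both strands, and no matches overlapped in these windows.

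FOS: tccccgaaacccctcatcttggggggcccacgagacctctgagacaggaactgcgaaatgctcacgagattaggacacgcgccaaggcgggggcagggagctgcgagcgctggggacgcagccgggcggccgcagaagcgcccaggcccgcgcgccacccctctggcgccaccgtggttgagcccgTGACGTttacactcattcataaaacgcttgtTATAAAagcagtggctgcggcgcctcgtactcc
EGR1: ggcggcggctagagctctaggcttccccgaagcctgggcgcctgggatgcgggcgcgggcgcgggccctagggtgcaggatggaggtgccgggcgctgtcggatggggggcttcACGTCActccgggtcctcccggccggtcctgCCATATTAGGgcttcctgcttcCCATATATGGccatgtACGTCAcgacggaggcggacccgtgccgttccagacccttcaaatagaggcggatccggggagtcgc
FOSB: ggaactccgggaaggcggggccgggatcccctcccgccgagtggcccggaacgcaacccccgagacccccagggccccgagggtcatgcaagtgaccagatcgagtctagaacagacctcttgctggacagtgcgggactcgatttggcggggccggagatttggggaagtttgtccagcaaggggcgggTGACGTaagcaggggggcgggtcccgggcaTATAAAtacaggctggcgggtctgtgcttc
TOB2: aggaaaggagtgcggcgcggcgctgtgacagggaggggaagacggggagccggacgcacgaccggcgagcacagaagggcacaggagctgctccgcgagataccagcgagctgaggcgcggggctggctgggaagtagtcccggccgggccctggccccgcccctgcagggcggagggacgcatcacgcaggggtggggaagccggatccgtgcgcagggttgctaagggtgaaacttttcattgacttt

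The EGR1 window held 2 CArG boxes and 2 TGACGT matches. The FOS and FOSB windows each held 1 TGACGT and 1 TATAAA match, and the TOB2 window held 0 of any of them. A CArG box was found in 1.16% of 35116 promoter windows of the same length in the table, TGACGT in 7.1% and TATAAA in 10.7%. These matches describe the letters alone. Bases further upstream were not searched, so a missing match, as of a CArG box at FOS, holds for these windows only.

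FOS, a subunit of the AP-1 transcription factor, lay in a domain at chr14:75743613-75750553 whose cover went from 18.5% to 87.5%, with 86.3% after 1 h of merbarone. The window of 500 bp on either side of the start was 79.9% covered in control and 76.4% at 30 min. Its body, from 500 bp after the start to the end, went from 0% to 90%, and the 5 kb past its end from 0% to 32.3%. The longest control peak there spanned 799 bp and the longest 30 min peak 3395 bp. The change at FOS was thus mainly in the body and past the end, and not in the start window. A separate peak upstream of the start also widened, from 483 bp to 1032 bp.

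EGR1, a zinc finger transcription factor, was also covered more in the body and past the end, at chr5:137799400-137807060. The cover of its domain went from 33.7% to 99.1%, and 1 h gave 100%. A control peak of 2211 bp over the start gave way to a single peak of 7592 bp. The start window went from 93% to 100%, the body from 0% to 100% and the 5 kb past the end from 7.44% to 41.1%.

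FOSB, a further AP-1 subunit, lay in a domain at chr19:45970906-45982034 whose cover went from 17.2% to 80%, then back to 51.4% in the 1 h list. Its body went from 15.7% to 96.2% and was at 58.2% at 1 h. The start window went from 57.3% to 84.7%, so at FOSB the start was covered more as well.

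**Figure D2:**
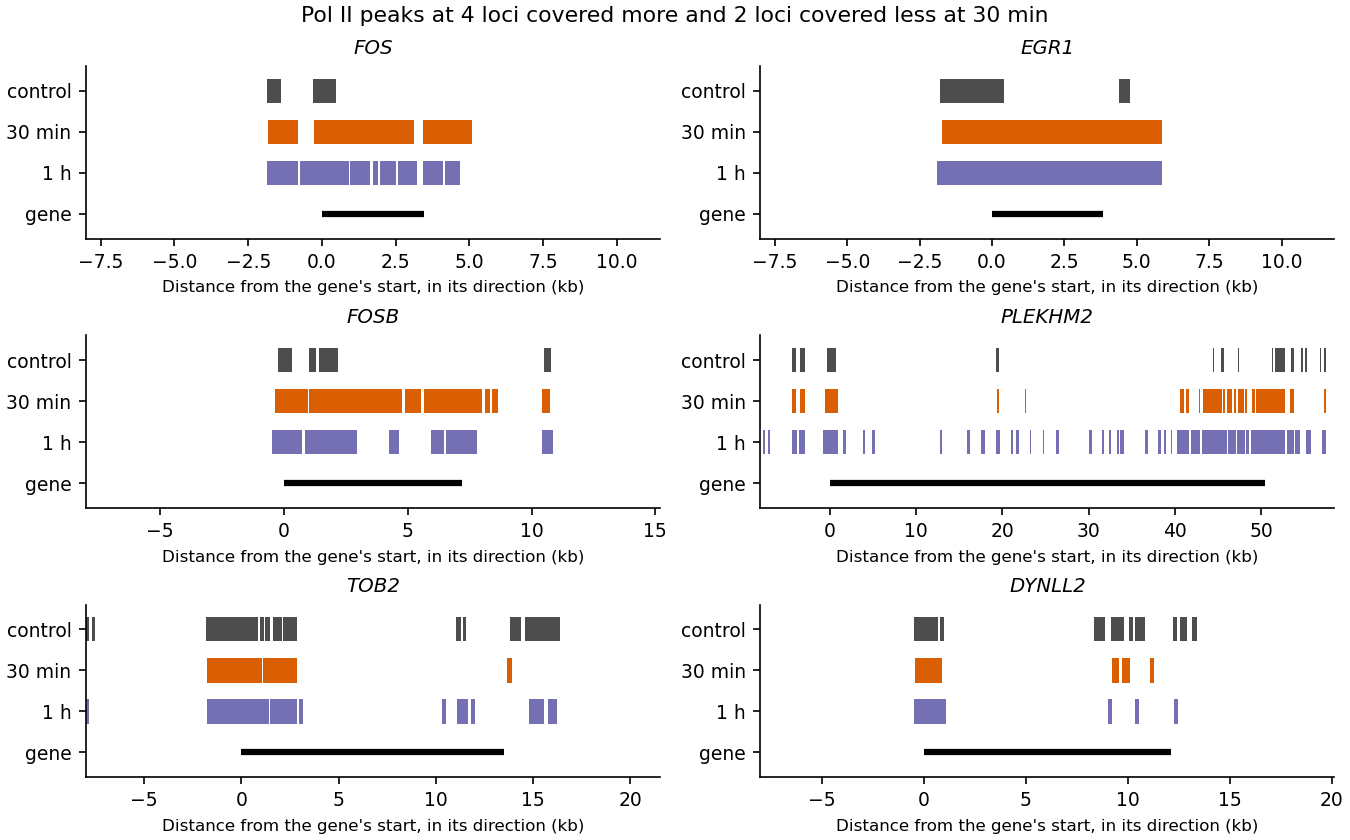
Bars are Pol II peaks in the control, 30 min and 1 h lists, placed by distance from the gene's start in kb in the direction of the gene (black bar). At FOS, EGR1 and FOSB the 30 min bars fill the body; at PLEKHM2 they fill the 3′ part of the gene; at TOB2 and DYNLL2 the bars over the start stay and those near the end thin out.

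No hg19 annotation was used. Gene positions came from general knowledge of hg19, and a gene entered the counts only where its chromosome, length and, where known, strand matched the GRCh38.p14 gene table: 135 of the 156 genes listed at the outset passed. Of these, 126 had a control peak within 100 bp of the start, which is a weak check of the positions of the starts. Where a wide peak lies over the start, a misplaced start would pass as well. The ends had no such check and rest on the match of length. The immediate-early list had 53 genes that passed, mixed with related growth and stress response genes. Its mean body cover went from 49.2% to 57.4%, with 65.7% in the 1 h list. The median change was 0, with 25 bodies up, 8 down and 20 equal, so the mean rests on a few genes, EGR1, FOS and FOSB first. Bodies were covered more by at least 10 points in 9 genes (17%) and less in 1 (1.89%). Start windows were covered more in 8 (15.1%) and less in 2 (3.77%). Over all 135 genes the shares were 12.6% and 4.44% for bodies and 6.67% and 4.44% for start windows. The 135 include the 53, which hold 9 of their 17 bodies and 8 of their 9 start windows covered more.

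The 9 genes with bodies covered more were EGR1, FOS, FOSB, HES1, CSRNP1, SNAI1, NFKBIA, DUSP5 and ERRFI1. HES1, a Notch target and transcriptional repressor, went from 17% to 58.6% of its body and was at 100% at 1 h. CSRNP1, a nuclear protein, went from 37.2% to 69.9%, and SNAI1, a repressor of E-cadherin, from 9.17% to 33.3%. NFKBIA, the inhibitor of NF-kappaB, went from 73.6% to 91.3%, DUSP5, a dual-specificity phosphatase, from 5.18% to 17.3%, and ERRFI1, an inhibitor of the EGF receptor, from 0.907% to 12.2%. These 9 were grouped by their gain in the body, so that gain cannot be set against their starts. Their median start window went from 81.6% to 89.2%. PIM3, a serine/threonine kinase, was the 1 gene covered less in the body, from 80.7% to 62.9%, and its body was at 100% at 1 h.

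A further 10 genes had no peak in the body in either list: ARC, CXCL8, EGR3, EGR4, KLF4, NR4A2, NR4A3, PTGS2, RGS2 and SNAI2. Several of these were covered more at the start alone. PTGS2, the inducible cyclooxygenase, went from 33.1% to 81.1% of its start window, KLF4 from 31.3% to 64.5%, NR4A3 from 23.9% to 47% and EGR3 from 0% to 23.7%. The median start window of the 10 went from 32.2% to 55.8%. Grouped by their empty bodies, they differed in this from FOS and EGR1, whose bodies filled.

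Another 10 genes were covered over 100% of the body in both lists, and could not gain there: CTGF, CYR61, DUSP1, ID1, ID3, IER3, JUNB, JUND, PPP1R15A and SIK1. The stretch past the end still moved in some of them. JUNB, an AP-1 subunit, went from 44.9% to 82.3% of the 5 kb past its end, and was at 73.8% at 1 h. JUND went from 82.9% to 94.2%, while SIK1, a salt-inducible kinase, went from 65.5% to 53.4%.

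The other 23 genes of the list (ATF3, BCL6, CCL2, FOSL1, HBEGF, ID2, IER2, IL6, JUN, KLF10, KLF6, LIF, MAFF, MCL1, NAB2, NR4A1, PHLDA1, PIM1, RHOB, SRF, TRIB1, ZFP36 and ZFP36L1) moved by between -6.79 and 8.76 points in the body. MAFF, a small MAF protein, went from 23.5% to 62.2% past its end, and RHOB, a small GTPase, from 46% to 69.3%. Over the 53 genes, the 5 kb past the end were covered more in 12 (22.6%) and less in 2 (3.77%). The shares over the 135 were 11.9% and 9.63%, where 12 of the 16 covered more were those of this list.

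**Figure D3:**
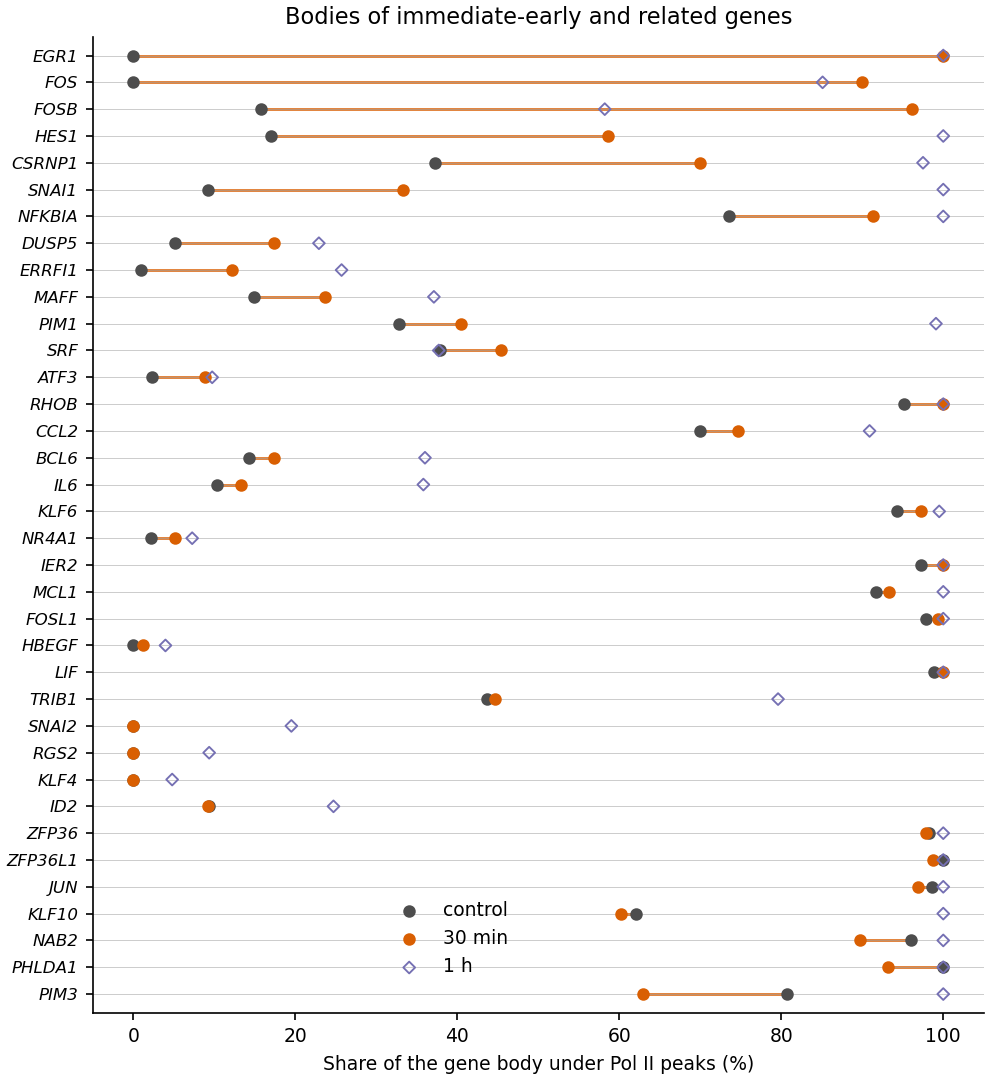
The share of the gene body under Pol II peaks, in percent, in control, at 30 min and at 1 h, for the 36 of 53 immediate-early and related genes whose values differ by over 1 point in sum. Orange lines join control to 30 min; EGR1, FOS and FOSB span most of the axis, and most other bodies move little or were near 100% in control.

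In the matrix and cytoskeleton list of 21 genes, 0 bodies were covered more and 3 less: CAV1, the coat protein of caveolae, went from 49% to 30.4%, CD44, a hyaluronan receptor, from 73.8% to 58.6%, and FN1, fibronectin, from 74.7% to 62.8%. CD44 and FN1 were above control at 1 h (85.5% and 90.8%), and CAV1 was at 29.8%. KRT8 and SDC4 moved by 7.88 and -7.7 points. VIM and KRT18, intermediate filament genes expressed in this line, were covered over 100% and 95.9% of the body in control; the pigment epithelium markers RPE65, BEST1, RLBP1 and MITF were not analysed here. In the housekeeping list of 23 genes, bodies were covered more in 3 and less in 1. ODC1, which makes putrescine, went from 9% to 44.2% and B2M, a subunit of MHC class I, from 10.2% to 25.7%, while PKM, pyruvate kinase, went from 93.7% to 78.1%. NPM1 moved by 9.88 points in the body. TOP2A itself moved by 8.92 points in the body, and the 5 kb past its end went from 32.1% to 12.2%. Past the end, 1 gene of this list was covered more and 5 less.

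Among the 10 cell cycle and p53 target genes, WEE1 (34.2% to 46.4%) and PLK3 (80.8% to 92.7%) were covered more and none less. CDKN1A, the p21 inhibitor, moved by 1.67 points at 30 min and was at 99.8% at 1 h. BTG2 moved from 16.5% to 20.3%, then stood at 95.9% at 1 h, so its body filled after 30 min. GADD45A moved by 5.41 points and TOB1 by -2.53. Of 11 stress genes, ATF4, a mediator of the integrated stress response, was covered more (59.8% to 78.6%), and FBXO32, HSPB1, HSP90AA1, DDIT3 and HSPA5 moved by under 10 points. Of the 12 remaining genes, ITPRIP (12.2% to 26.3%) and VEGFA (61.1% to 71.9%) were covered more, and SIX3, SOX9, ANKRD1 and SPSB1 moved by under 10 points. SPSB1 was at 72.7% at 1 h after 1.85% in control and 5.33% at 30 min. The noncoding RNAs NEAT1 and MALAT1 were at 100% in all 3 lists.

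Other loci among the 15 largest rises were more often 3′ ends than starts. The domain at the end of SLC9A8, a sodium/proton exchanger (chr20:48502739-48509757), went from 25.6% to 78.5%. That of DDB1, a damage-recognition subunit of a ubiquitin ligase (chr11:61061772-61068243), went from 26.5% to 73.3%. The 5 kb past the end of DDB1 went from 32.1% to 77.6% while its start window was at 100% in both lists. That of AMBRA1, an autophagy regulator (chr11:46413596-46419056), went from 33.3% to 78.5%. The domain by the end of CLSTN1 (chr1:9784369-9791054) went from 20% to 63.7%. It was also placed at the end of a further gene, which failed the check described above. With CLSTN1 cut into 5 equal parts, the last went from 0% to 5.72%. Domains in the last parts of ARNT2 (4.63% to 49.9%) and BRAT1 (35.3% to 79.9%) also filled. The body domains of SLC22A23 (3.35% to 54.2%) and TMCO3 (10.2% to 56.8%) held neither the start nor the end of the gene. Of 5 equal parts from 5′ to 3′, SLC22A23 gained in the last (1.12% to 10.8%). TMCO3 gained most in the fourth (6.73% to 35.1%).

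MVD, an enzyme of the mevalonate pathway, was covered more in the first and the last 5 kb of its body alike (0% to 52.9% and 16.9% to 85.5%). Its domain (chr16:88715751-88730349) went from 28.9% to 74% and its body from 7.91% to 69.8%, then stood at 19.4% at 1 h. The domain at chr3:8799903-8811429 went from 7.42% to 60.5% and that at chr7:76134084-76140073 from 20% to 75.6%; the genes recalled there failed the check and are not named. A domain at chr11:69188824-69197426, given no gene here, went from 26.6% to 73.9% and was at 4.5% at 1 h. Among the 40 domains with the largest rise, 34 lay in or by a gene with a recalled position; 18 of these held an end and no start, 4 a start alone and 4 a whole gene. The genes at these loci were looked up after the ranking was known, so these counts describe the loci.

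Ranked by covered length, other loci came first, and these were long domains. The largest gain in covered length, 66.9 kb, was in FRMD4A, a scaffold protein of cell polarity (chr10:13675269-14173384), from 29.2% to 42.7% of the domain. From 5′ to 3′, 5 equal parts of FRMD4A went from 0.478% to 0.251%, 18.2% to 17%, 22.8% to 31.2%, 29.9% to 47.3% and 35.1% to 57.1%. The gain in FRMD4A was in the 3′ part. MACF1, a spectraplakin that links actin to microtubules, gained 33.8 kb and AFAP1, an actin filament protein, 23.2 kb. RPS6KA2, ASAP2, SEPT9, MYOF and SH3BP4 gained between 14.9 and 19.3 kb each, and a domain at chr1:201505671-201764010 gained 40.4 kb.

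Whether the pattern at ends held in genes not picked for their change was looked at in 143 well-known genes, a list written down after the ranking of domains had been seen. The start window was covered over 82.6% on average in control and 84% at 30 min, with 12 genes (8.39%) covered more, 5 (3.5%) less and 62 equal. Most start windows were too full in control to gain 10 points, so this count cannot be set against the emptier windows at the end. With 1 kb on either side of the start, 26 genes were covered more and 10 less, and over 10 kb past the end 25 more and 3 less. The last 5 kb of the gene went from 21.2% to 26.9%, with 35 genes (24.5%) more, 3 less and 71 equal. The 5 kb past the end went from 35.7% to 40.4%, with 34 genes (23.8%) more and 7 (4.9%) less. The first 5 kb of the body went from 22.3% to 25.4%, with 20 genes more and 3 less. Between 10 and 20 kb past the end, 3 genes were covered more and 3 less. Whole bodies were covered more in 8 genes (5.59%) and less in 0, where in long genes a filled end is a small part of the body.

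The 135 listed genes did not show the same at the end. The 5 kb past the end were covered more in 16 and less in 13, with means of 43.8% and 45.1%. Their last 5 kb were covered more in 21 and less in 8, and the first 5 kb of the body in 26 (19.3%) and 2 (1.48%). In the 28 general genes under 25 kb, too, the first 5 kb were covered more in 9 and less in 0, and the 5 kb past the end in 3 and 3. Past the end, cover was gained on balance in the long general genes, but not in the short ones or the 135 listed genes together. The listed genes differed by list: past the end, the immediate-early list had 12 covered more and 2 less, the housekeeping list 1 and 5. In the 28 short general genes the last 5 kb were covered more in 7 and less in 0. The first and last 5 kb were not cut to the gene. In genes shorter than these stretches, such as FOS (3457 bp), the first ran past the end and the last reached before the start. In the listed and short genes these counts are thus not of 5′ and 3′ parts alone.

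**Figure D4:**
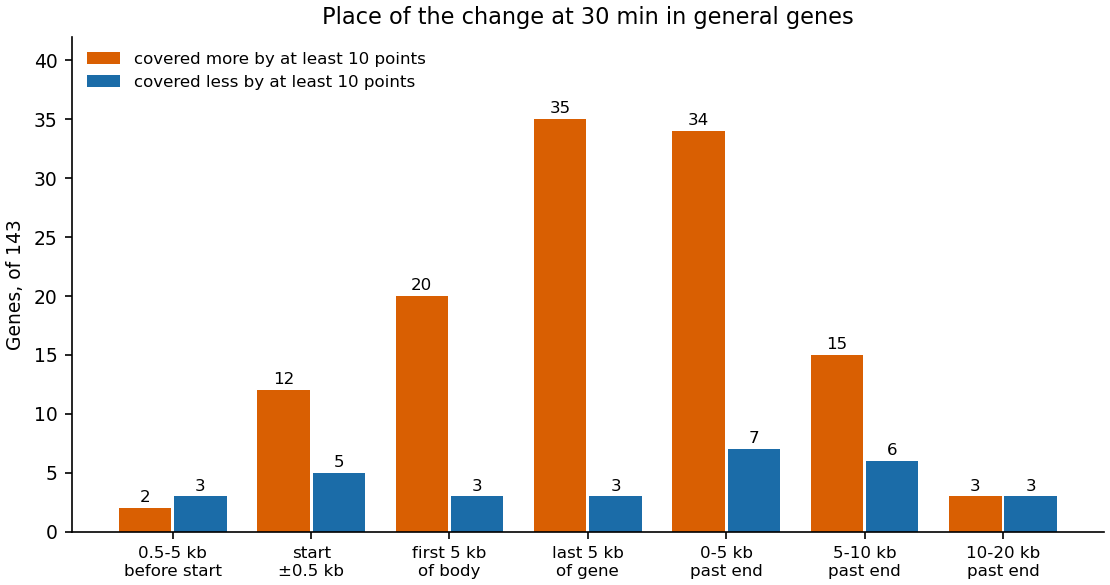
Bars count the genes, of 143 general genes, whose cover moved by at least 10 points at 30 min in each stretch along the gene (orange more, blue less). The last 5 kb and the 5 kb past the end hold 35 and 34 genes covered more; the 12 at the start window come from a window already 82.6% covered in control.

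In the 115 of these genes that were at least 25 kb long, the change was narrow at the start and wide at the end. In the kb before the start, mean cover was 54.8% in control and 54.2% at 30 min. It went from 72.4% to 76.8% in the first kb and from 24.3% to 30.8% in the second, and was 11.6% and 11.3% in the fourth. At the other end, it went from 18.4% to 25.9% in the last kb of the gene, from 29.1% to 39.3% in the first kb past the end and from 39.6% to 49.5% in the second. The mean change was 6.56 points in the second kb after the start (SE 1.68 over genes, which are not replicates) and 10.1 points in the first kb past the end (SE 1.88). With each gene cut into 5 equal parts, 13 of 115 genes were covered more by at least 10 points in the last part and 2 less, and 1 more and 0 less in the second.

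At 1 h the same genes were covered more along the body: mean cover was 19.9% in the fourth kb after the start. In the middle one of the 5 parts it was 10.8%, after 7% in control and 7.27% at 30 min. The 1 h list has 2 libraries and is read against the same control list, so these are side by side values. In the second kb past the end, 1 h stood at 46.6%, between control and 30 min.

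**Figure D5:**
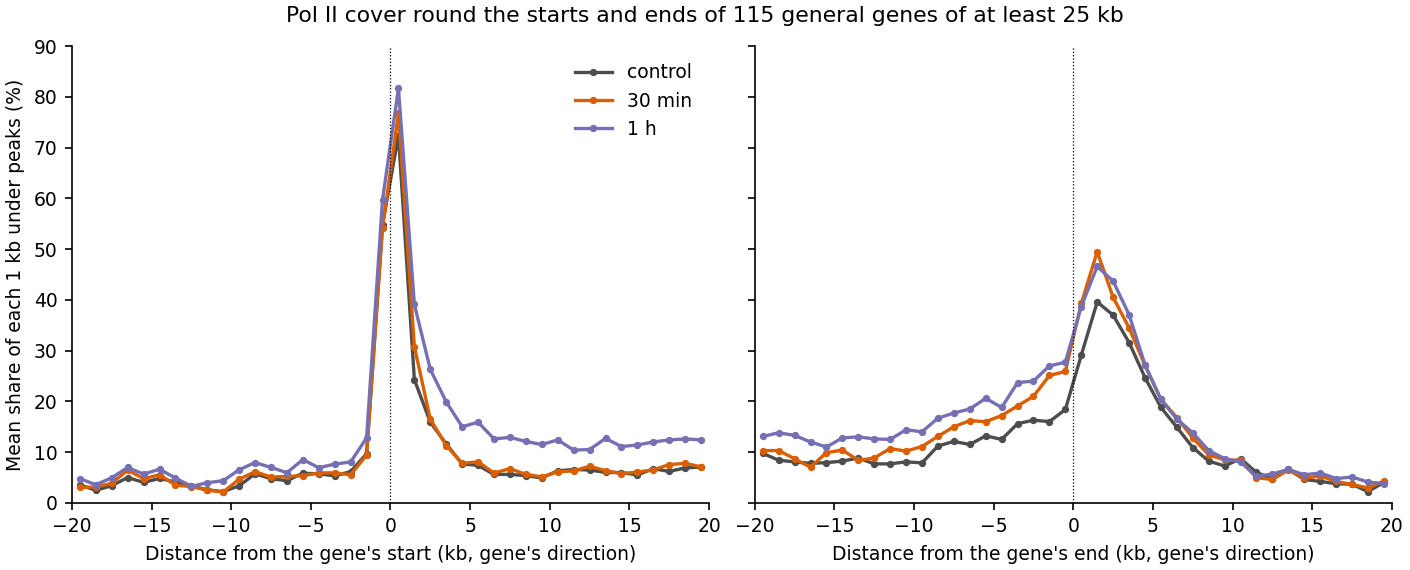
Mean share of each 1 kb stretch under Pol II peaks, in percent, by distance in kb from the start (left) and end (right) of 115 general genes of at least 25 kb. The 30 min line parts from control in the first 2 kb after the start and round the gene end, most in the first kb past it; the 1 h line lies above control along the body too.

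Genes were also split by whether another protein-coding gene lay within 10 kb past the end. In the 66 long genes with no such neighbour, the last 5 kb went from 9.05% to 13.1% and the 5 kb past the end from 27.5% to 32.1%. There, 17 genes were covered more and 4 less past the end. Last 5 kb were covered more in 10 of these 66 (15.2%). In the 49 long genes with a neighbour, the last 5 kb went from 24.8% to 33.2%, with 18 genes (36.7%) more and 1 less, and the stretch past the end went from 39.1% to 46.3%, with 14 more and 0 less.

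Single genes show the forms this took; they were picked after their values were seen. SREBF2, the transcription factor of sterol genes, went from 27.2% to 87.8% of its last 5 kb and was at 50.5% at 1 h, with its start window at 100% throughout. USP7, a deubiquitinase of the p53 pathway, went from 41.1% to 84.2% past its end, and RAD50, of the MRN repair complex, from 41.7% to 83.1%. PLEKHM2, a lysosomal adaptor, went from 6.53% to 63.5% in the last of 5 equal parts, with the fourth at 0% in both lists. At the 5′ side, XRCC5 (the Ku80 repair protein) went from 21.2% to 50.3% of the first 5 kb of its body. POLR2A, which encodes Rpb1, gained in its first 5 kb (10.3% to 32.9%) and lost in its last (33.8% to 3.9%).

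Larger moves in the edge of the peak over the start were mainly on the downstream side. In 132 general genes with a peak at the start in all 3 lists, the median distance of the downstream edge from the start was 836 bp in the control list, 924 bp in the 30 min list and 1078 bp in the 1 h list. Gene by gene, the median shift of this edge from control to 30 min was 35 bp outward, with 82 edges out and 50 in. The downstream edge lay at least 300 bp further out in 22 genes at 30 min and at least 300 bp further in in 8. The upstream edge lay at a median of 565 bp and 582 bp, and moved out by at least 300 bp in 6 genes and in by as much in 8. Its median shift gene by gene was 13 bp outward, with 73 edges out and 58 in.

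Ranked domains that held the end of a general gene and not its start were covered more in 22 of 46 (47.8%) and less in 1. Those with a start and no end were covered more in 4 of 24 (16.7%), and those with both in 2 of 27 (7.41%), against 34.8% of all ranked domains. In the 8 with neither, inside the body, it was 0. Median changes were 9.61 points with an end alone, 4.87 with a start alone and 4.2 with both. These classes were not matched for control cover, and fuller domains were called less often (42.9% under 20% cover, 1.06% at 80% or over).

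Enzymes of sterol synthesis were added after the values of MVD, SREBF2 and other genes had been seen. Of 9 further genes that passed the check, HMGCS1, HMG-CoA synthase, was covered more by at least 10 points in the body (53.1% to 65.2%, and 55.3% at 1 h) and 0 less. The background for bodies was 12.6% of listed and 5.59% of general genes, and 1 of 9 is near it. Their last 5 kb were covered more in 3 (33.3%, against 24.5% of general genes): LSS, lanosterol synthase, went from 23.8% to 58.7%, and MVK, mevalonate kinase, from 9.68% to 39%. SQLE, squalene epoxidase, was at 3.88% and 3.78% of its body. The bodies of all 9 moved by less than that of MVD.

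Losses were fewer. TOB2 and DYNLL2 were listed because earlier results of these data showed them losing cover. TOB2, an anti-proliferative regulator of mRNA deadenylation, kept its start window at 100% in all 3 lists. The domain at its 3′ end (chr22:41826652-41832001) went from 52.5% to 5.29% and stood at 36.7% at 1 h, and the 5 kb past its end went from 46.8% to 5.66%. DYNLL2, a dynein light chain, was alike: its 3′ domain (chr17:56169132-56174166) went from 52.6% to 18.5% and was at 10.2% at 1 h, while its start window was at 97.1% and 91.3%. In both genes cover was kept at the start and lost round the end.

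F2R, the thrombin receptor PAR1, lost cover at its start: the domain (chr5:76011325-76016712) went from 69.6% to 29%, the start window from 100% to 70.3% and the first 5 kb of the body from 54.1% to 17.2%. LASP1, an actin-binding LIM protein, had its start window at 100% in both lists, its first 5 kb going from 54.7% to 29% and its last 5 kb from 28.8% to 52.8%. SOX12, a transcription factor, went from 79.7% to 35.1% past its end with the body at 98.8% and 96.7%. MEST, an imprinted gene, went from 81.9% to 51.8% of its domain (chr7:130128931-130154033).

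Several genes lost cover along the body. CTDSP2, a phosphatase of the Pol II C-terminal domain family, went from 56.1% to 29.8% of its body and was at 75.5% at 1 h. CXXC5, a zinc finger protein, went from 83.6% to 57.2%, then 96.9%. DCBLD2 went from 83.1% to 64.9%, then 81.8%, its domain (chr3:98558042-98622327) holding 29 peaks in control and 57 at 30 min. ELL2, a Pol II elongation factor, went from 33.4% to 11.3%, then 44.3%. HMGA2, an architectural chromatin protein, went from 95.6% to 83.9%, then 94.7%, and IGFBP7 from 89.3% to 75.6%, then 98.9%. Start windows of CTDSP2, CXXC5, DCBLD2, HMGA2 and IGFBP7 were at 100% in all 3 lists, so these losses lay in the bodies.

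By covered length the largest loss, 21.9 kb, was in the domain by MIR181A1HG, the host gene of a miR-181 cluster (chr1:198795355-198906927), which went from 57.7% to 38.1% and was at 52.8% at 1 h. CXXC5 lost 17.7 kb and ELL2 17.6 kb of domain cover, and MIR31HG 9.82 kb. Of the domains in the 15 largest falls not yet given, those at chr3:112313576-112324687 (63.2% to 30%), chr7:149468847-149475905 (40.9% to 13.1%), chr16:85584006-85590068 (56.9% to 33.8%), chr14:50874751-50883628 (69.3% to 46.3%) and chr3:98699712-98705327 (41.2% to 19%) carry no gene name here. A domain inside FRMD4A (chr10:14205760-14216720) went from 41.7% to 19.2%, next to the long stretch of the same gene with the largest gain. The 178 domains covered less, grouped by that fall, went from a median cover of 48.7% to 34.2%, with 53.3% in the 1 h list. The 2748 domains that moved by under 10 points also stood higher at 1 h, with medians of 34.6% in control and 45.6% at 1 h. A return at 1 h in the loci above was not told apart from this wider cover. BMP4, a growth factor listed for the same reason as TOB2, went from 89.9% to 76.4% of its body and was at 65.6% at 1 h.

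Counted in bases, 13 Mb were under a 30 min peak and no control peak, and 6.96 Mb the reverse. Of the gained bases 54.8% lay in gaps between control peaks of 1 domain, 36.8% within 5 kb of a control domain and 8.35% farther away. They touched a control peak in 50.3% of bases, in pieces with a median of 84 bp. Of the lost bases, 55.5% lay in control peaks that were kept in part, and the rest in the 12913 control peaks (21.4%) with no overlap at 30 min. Bases touching a peak of the other list were thus the largest class by distance in both directions. New domains of at least 5 kb numbered 78 with 30 min peaks alone and 7 with control peaks alone.

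TOP2A peaks, from 2 untreated libraries, lay in 5.51% of the domains covered more (95% Wilson interval 4.48 to 6.75), 20.8% of those covered less (15.5 to 27.3) and 11% of the others (9.87 to 12.2). The intervals cover counting error alone. Control cover moved with this: its median was 29% in domains covered more and 48.7% in those covered less, with median lengths of 9880 and 9273 bp. The part of control cover in the TOP2A difference was not tested.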

How the data were processed

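Pol II ChIP-seq libraries of hTERT RPE-1 cells were analysed as the authors' deposited peak lists, 1 per condition, which give start and end positions and no height or score. Bowtie 1.2.0, MACS2 and deepTools 2.4.1 on hg19 are named in the submitters' processing notes; the sources used here do not give the peak threshold, the depth or the way libraries were combined. The control list is named in the labels of both the DMSO and the untreated libraries. From the deposited positions, neighbours within 37 bp were merged and peaks narrower than the narrowest of the 1 h list were left out. Domains, cover and windows were computed in Python 3.11.15 with numpy 2.4.6 and pandas 2.3.3, Wilson intervals with scipy 1.17.1; 4 interval functions were tested on simulated data in 20 runs. The first 5 kb of the body began 500 bp after the start, and neither these nor the last 5 kb were cut to the gene. The share of bases under peaks was compared with no test.

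Named loci were the 15 largest rises and falls in share and the 10 largest in bp, and, per gene list, up to 6 genes with the largest change of body cover, with the immediate-early list in full. Genes were placed by hg19 positions from general knowledge, checked against the GRCh38.p14 gene table (chromosome, length within 500 bp or 10%, strand where the promoter table has it). All genes matched in chromosome; 21 of 156 listed genes failed and were left out, as were 17 of 160 general genes. The members and lists were chosen with earlier results of these data known. The length tolerance, the general, locus and sterol lists and the windows at gene ends were set after the data were seen. A few genes that the naming rule would give are not reported here; the counts include them.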

Additional observations from a re-analysis of the deposited data

How the results depend on the processing

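Of the recomputed values, 78 stayed within 1.5 times the reported count or share of genes, or within 2% of a reported ratio or share of bases, and 20 did not. The general genes and the neighbour check were added after seeing the data. Counting changes of at least 20 points left 459 domains covered more and 20 less. Domains drawn from the control list with flanks of 2.5 kb gave 746 more and 83 less of 3512, and joining across 10 kb gave 106 less. The ratio of covered length was 1.11 with the lists as deposited. Gained bases between control peaks were 62.8% with the lists as deposited and 40.6% without peaks under 300 bp; for lost bases without those peaks the share inside 30 min domains was 46.8%, after 60.6%, and the share in peaks kept in part was 47.7% with the lists as deposited. A start window of 1 kb on either side gave 20 listed genes covered more and 10 less, and 26 and 10 general genes. Over 10 kb past the end, 6 listed and 3 general genes were covered less. Without peaks under 300 bp, 12 general genes were covered less past the end and 5 in the first 5 kb. Among general genes with no neighbour within 10 kb past the end, 7.69% were covered less past the end and 1.28% in the first 5 kb. The cause was not tested for any of these. Under each of these domain settings more domains were covered more than less. No paired analysis was possible because each condition has 1 list, and leaving out a library was not possible for the same reason. Without depth or replicates, a small shift in cover cannot be told apart from a shift in the caller's threshold.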
